A study of Mus musculus with 48 samples.

Results

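Cells on the way from mouse embryonic fibroblasts (MEFs) to induced pluripotent stem cells (iPSCs) were compared here at one early step of reprogramming with the OKMS cassette: E-CAD- 2NG- intermediates, sorted on day 10, against the OKMS MEFs they came from. All libraries with the sample labels of these 2 conditions were taken, which gave 3 E-CAD- 2NG- and 2 OKMS MEF libraries, or 5 of the 48 libraries of the series. The series holds 20 conditions of MKOS and OKMS reprogramming, MEFs, iPSCs and embryonic stem cells (ESCs), and asks how the routes of the 2 cassettes differ. RNA was measured by STRT, which reads the 5′ end of transcripts, and only the 24264 transcript entries of the count table were used.

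The OKMS cassette encodes Oct4 (Pou5f1), Klf4, Myc and Sox2 in that order on 1 transcript together with the fluorescent protein mOrange, under a doxycycline-controlled promoter. The cassette and a CAG-driven rtTA activator were targeted to the third intron of Sp3 in TNG ESCs, a line in which GFP reports Nanog. The MEFs of both groups came from chimeric embryos made with these ESCs, so not every fibroblast in the OKMS MEF libraries carried the cassette. For sorting, transgenic MEFs were mixed into an excess of wild-type MEFs and kept in ESC medium with doxycycline and vitamin C. By the study's methods, MEFs were otherwise cultured in GMEM with serum, FGF2 and heparin, and LIF was the supplement of ESC medium. The 2NG- gate holds cells low for the surface proteins CD44 and ICAM1 and negative for Nanog-GFP, and E-CAD- means that E-cadherin was not on the surface. Such cells were abundant only with OKMS, which carries a short form of Klf4. OKMS E-CAD+ 2NG- cells (3 libraries), MKOS MEFs (2), MKOS E-CAD+ 2NG- cells (3) and TNG OKMS ESCs (2) are cited where they show how the E-CAD- cells stand, and MKOS is the cassette with the order Myc, Klf4, Oct4, Sox2. The series design places every sorted population on day 10, while the culture protocol allows a later day as well.

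Fibroblasts are mesenchymal cells: they lie singly in a collagen-rich matrix, pull on it with actin stress fibres and keep epithelial genes silent through factors such as Snai1, Twist and Zeb. During reprogramming they pass a mesenchymal-to-epithelial transition, in which those factors are lost and E-cadherin (Cdh1), Epcam, claudins and keratins are gained, before the pluripotency network of Nanog, Esrrb, Zfp42 and others is established. E-CAD- intermediates are placed before that transition by their surface.

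The OKMS MEF libraries held 5388144 and 8732413 reads on transcripts and the E-CAD- 2NG- libraries 5270817, 2912757 and 6133070. Mitochondrial transcripts took 6.73% to 8.24% of these reads in the MEFs and 6.53% to 13.6% in the sorted cells. Levels are given as counts scaled to 1000000 transcript reads per library (CPM), in the order of the replicate numbers. Over the 6182 genes with at least 10 CPM on average in both groups, libraries of 1 group differed by a median of 0.329 to 0.361 on the log2 scale, and libraries of different groups by 0.589 to 0.700. Adjusted p-values are from edgeR's quasi-likelihood test with Benjamini-Hochberg adjustment over 15630 genes, and a gene is said to have risen or fallen where this value was at most 0.05. The test estimates the spread within all 20 conditions of the 48 libraries, not within the 2 groups compared alone. The labels do not say that replicates are separate cultures, so this spread may be technical. Leaving out an OKMS MEF library leaves 1, which is then assumed to vary as the other groups do. Most genes below were named by a rule on their calls and levels, and others, such as Vim, Krt8 and the Zeb genes, were chosen after their values were seen. In bulk samples, fewer cells of a type and less RNA per cell cannot be told apart.

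In all, 3410 genes (21.8%) changed between OKMS MEFs and E-CAD- 2NG- cells, of which 1829 (11.7%) rose and 1581 (10.1%) fell. The median log2 fold change over all genes tested was 0, 462 genes rose by more than 8-fold and 437 fell by more than 8-fold. The shares of 11.7% and 10.1% are the background against which the counts for gene lists are given. Without OKMS MEF replicate 1 the total was 2248 genes and without replicate 2 it was 1874.

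**Figure D1:**
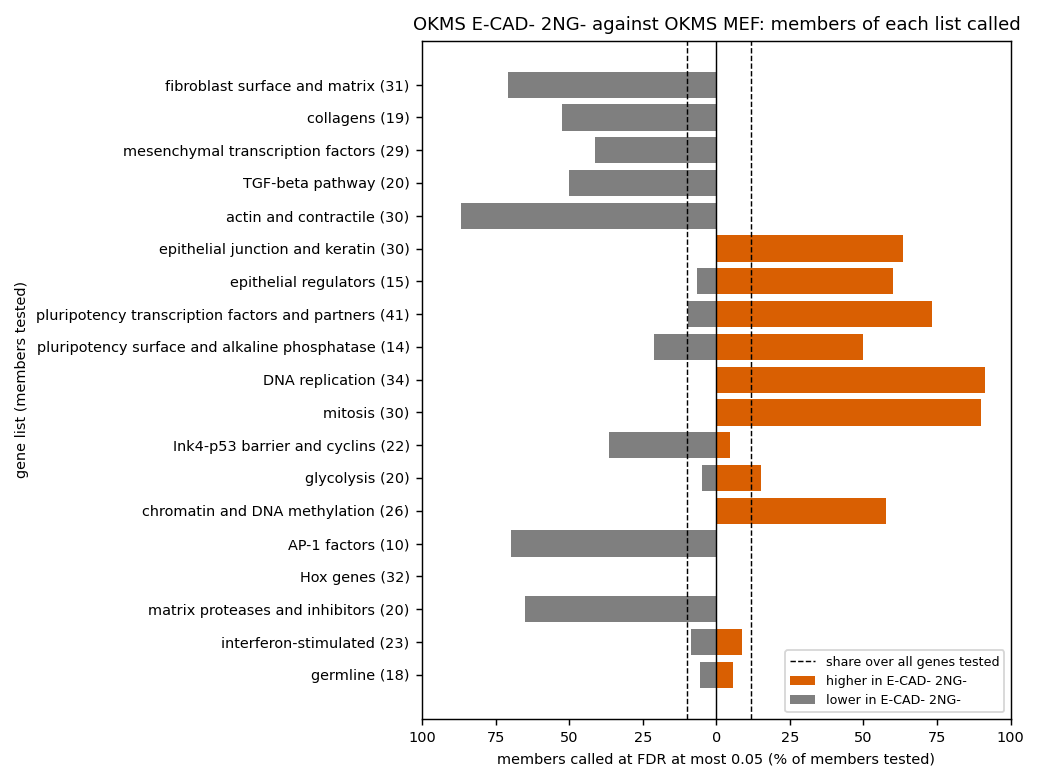
Share of the members of each gene list that rose (bars to the right) or fell (bars to the left) in the 3 OKMS E-CAD- 2NG- libraries against the 2 OKMS MEF libraries, in percent of the members tested (number in brackets). The dashed lines mark the shares over all 15630 genes, 11.7% higher and 10.1% lower; matrix, contractile and AP-1 lists lie to the left, and epithelial, pluripotency, replication and mitosis lists to the right.

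The genes behind the sort were read first. Cd44, which encodes a hyaluronan receptor of fibroblasts, was at 252 and 362 CPM in the OKMS MEFs and at 59.8, 100.2 and 46.1 CPM in the E-CAD- 2NG- cells (log2 fold change -2.18, SE 0.76, adjusted p = 0.0333). Icam1, which encodes an adhesion molecule, was at 5.57 and 20.8 CPM against 0.190, 0 and 0.489 CPM (log2 fold change -5.51, SE 0.93, adjusted p = 2.19e-05). Both were lower in every sorted library than in either MEF library, and the gate itself selected cells low for the 2 proteins. The Cd44 call did not hold in every alternative: its adjusted p was 0.0769 with DESeq2's Wald test, 0.154 against all 6 MEF libraries of the series, 0.0902 without E-CAD- 2NG- replicate 1, 0.117 without replicate 3, 0.0716 without OKMS MEF replicate 1 and 0.137 without MEF replicate 2. Cdh1, the gene of E-cadherin, was at 0 and 0.687 CPM in the MEFs and at 20.5, 51.5 and 4.24 CPM in the sorted cells, although these were chosen for lacking the protein on their surface (log2 fold change 5.84, SE 0.74, adjusted p = 1.76e-07). It was lowest in replicate 3, and E-CAD+ 2NG- cells were far above all 3 libraries with 159, 182 and 152 CPM. Nanog had no read in either MEF library and 7.59, 15.1 and 15.7 CPM in the sorted cells, at least 60.2-fold higher against a floor of 3 reads over both MEF libraries (adjusted p = 3.33e-06). The Nanog-GFP- cells held Nanog reads in all 3 libraries, each below the 74.3 and 126 CPM of TNG OKMS ESCs.

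Of the 4 reprogramming factors, Pou5f1, Sox2 and Myc rose and Klf4 fell. Reads of the cassette and of the endogenous genes cannot be told apart in these counts. STRT reads the start of transcripts, and Klf4, Myc and Sox2 lie behind Pou5f1 in the cassette transcript. Cassette RNA of these genes may therefore be missed, and how much of it was counted was not tested. The fall of Klf4 counts need not be a fall of all Klf4 RNA. Pou5f1 went from 0.742 and 0.344 CPM to 60.7, 97.5 and 46.1 CPM (log2 fold change 7.003, SE 0.64, adjusted p = 1.53e-10). Sox2 went from 2.60 and 3.89 CPM to 42.9, 23.7 and 52.2 CPM (log2 fold change 3.57, SE 0.52, adjusted p = 2.00e-06) and Myc from 3.90 and 10.4 CPM to 44.8, 65.9 and 48.3 CPM (log2 fold change 2.85, SE 0.57, adjusted p = 2.30e-04). Klf4, a zinc finger factor, was at 75.0 and 144 CPM in the MEFs and at 35.9, 32.3 and 22.8 CPM in the E-CAD- 2NG- cells (log2 fold change -1.85, SE 0.40, adjusted p = 6.23e-04). MKOS MEFs held 103 and 114 CPM of Klf4, but wild-type MEFs held 14.3 and 12.1 CPM, below all 3 sorted libraries. No E-CAD- 2NG- library overlapped the OKMS MEFs for any of the 4 factors.

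Fibroblast surface and matrix genes fell as a group: 22 of the 31 tested were lower and none rose, with a median log2 fold change of -2.45 over the list. The count was 14 without E-CAD- 2NG- replicate 2 and 14 without OKMS MEF replicate 2. Thy1, a surface glycoprotein by which fibroblasts are recognised, was at 533 and 603 CPM in the MEFs and at 47.2, 25.1 and 38.5 CPM in the sorted cells (log2 fold change -3.96, SE 0.67, adjusted p = 2.31e-05). Tnc, which encodes the matrix protein tenascin C, went from 377 and 526 CPM to 16.7, 16.5 and 18.3 CPM (log2 fold change -4.74, SE 0.61, adjusted p = 2.15e-07). S100a4, a calcium-binding protein of motile fibroblasts, went from 1841 and 1584 CPM to 184, 294 and 242 CPM (log2 fold change -2.89, SE 0.39, adjusted p = 4.12e-07). For these 3 genes every sorted library lay several-fold below both MEF libraries, with little spread among the sorted ones. Vim, which encodes the intermediate filament protein vimentin, went from 2599 and 3109 CPM to 544, 426 and 484 CPM (log2 fold change -2.58, SE 0.51, adjusted p = 1.77e-04). Lum and Postn, a collagen-binding proteoglycan and a matrix protein, did not pass the test. Lum was at 20.04 and 23.9 CPM in the MEFs and at 1.33, 3.43 and 61.3 CPM in the sorted cells, so that replicate 3 lay above both MEF libraries while the others lay far below. The fibroblast-defining list (Thy1, Pdgfra, Pdgfrb, 3 collagens, Dcn, Lum, Prrx1, Twist1 and Vim) had 10 of 11 members lower, and all 11 were still read in the E-CAD- 2NG- cells. It was 7 to 9 when any 1 of the 5 libraries was left out.

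Collagens had 10 of 19 members lower and none higher (median log2 fold change -2.12). Col1a1, one of the chains of the main fibrillar collagen of connective tissue, was at 547 and 812 CPM in the MEFs and at 96.2, 149.7 and 118 CPM in the sorted cells (log2 fold change -2.52, SE 0.52, adjusted p = 3.62e-04). Col3a1, a fibrillar collagen of loose tissue, went from 949 and 1045 CPM to 177, 129 and 242 CPM (log2 fold change -2.48, SE 0.47, adjusted p = 1.28e-04). Col5a1, which nucleates collagen fibrils, went from 118 and 169 CPM to 20.5, 24.0 and 17.3 CPM (log2 fold change -2.83, SE 0.56, adjusted p = 1.96e-04). The basement membrane chains Col4a1 and Col4a2 did not pass the test: Col4a1 was at 106 and 168 CPM against 81.2, 67.6 and 38.0 CPM (adjusted p = 0.167). Of the matrix proteases and their inhibitors, 13 of 20 were lower and none higher (median -2.55). Timp2, an inhibitor of metalloproteinases, went from 336 and 500.0 CPM to 41.7, 60.4 and 30.001 CPM (log2 fold change -3.27, SE 0.52, adjusted p = 7.60e-06), and Serpinh1, the collagen chaperone Hsp47, from 675 and 795 CPM to 153, 113 and 133 CPM (log2 fold change -2.49, SE 0.42, adjusted p = 2.28e-05). Mmp10, a stromelysin, had 15.4 and 18.2 CPM in the MEFs and a single read in the 3 sorted libraries, a ratio of MEFs to sorted cells of 245 (95% exact interval 43.6 to 9731 from the counts, counting error only; adjusted p = 0.00104). Mmp3, another stromelysin, showed the pattern of Lum, with 83.1 and 76.3 CPM in the MEFs and 2.66, 2.75 and 64.1 CPM in the sorted cells (adjusted p = 0.444).

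Among the mesenchymal transcription factors, 12 of 29 fell and none rose, and the median log2 fold change was -2.97. The count of 12 was 7 without E-CAD- 2NG- replicate 2 and 4 without OKMS MEF replicate 2. Snai1, a repressor of Cdh1, showed the lowest adjusted p of the list: it was at 128 and 223 CPM in the MEFs and at 4.55, 2.40 and 4.08 CPM in the sorted cells (log2 fold change -5.54, SE 0.72, adjusted p = 3.13e-07). Prrx1, a homeobox factor of limb and craniofacial mesenchyme, went from 157 and 295 CPM to 13.7, 20.9 and 13.0 CPM (log2 fold change -3.85, SE 0.67, adjusted p = 4.49e-05). Twist2, a basic helix-loop-helix factor, went from 34.1 and 54.3 CPM to 1.52, 0 and 0 CPM (log2 fold change -6.27, SE 1.49, adjusted p = 0.00211), with reads in only 1 of the 3 sorted libraries. The 2 Zeb repressors of E-cadherin did not pass the test. Zeb1 was at 30.3 and 50.5 CPM against 18.8, 7.21 and 18.3 CPM (log2 fold change -1.45, adjusted p = 0.0850). Zeb2 was at 24.7 and 38.7 CPM against 17.3, 14.8 and 29.3 CPM (log2 fold change -0.66, adjusted p = 0.662), so that the third sorted library lay inside the MEF range. Foxd1, a forkhead factor of stromal cells, was at 11.7 and 18.7 CPM in the MEFs and higher in every sorted library with 96.8, 97.8 and 40.3 CPM, which did not pass the test (adjusted p = 0.149).

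TGF-beta, which maintains the mesenchymal state, signals through receptors and Smad proteins, and 10 of 20 genes of this pathway fell and none rose (median -2.70). The receptors Tgfbr2 and Tgfbr3 were among them. Tgfbr2 was at 63.5 and 120.5 CPM in the MEFs and at 15.2, 6.87 and 10.4 CPM in the sorted cells (log2 fold change -3.06, SE 0.81, adjusted p = 0.00507). Of the targets, Tgfbi went from 268 and 357 CPM to 41.5, 20.6 and 24.5 CPM (log2 fold change -3.43, SE 0.61, adjusted p = 5.25e-05). Ltbp1, which stores the latent ligand in the matrix, went from 157 and 249 CPM to 29.6, 17.2 and 7.99 CPM (log2 fold change -3.46, SE 0.55, adjusted p = 8.93e-06). The inhibitory Smad7 fell with the targets, from 39.7 and 85.7 CPM to 8.54, 7.90 and 2.77 CPM (log2 fold change -3.30, SE 0.55, adjusted p = 2.10e-05). Smad4, the common partner of the signalling Smads, was at 49.6 and 51.0 CPM in the MEFs and at 49.5, 49.8 and 49.9 CPM in the sorted cells, with no call (adjusted p = 0.979). The called genes were thus of ligand storage, receptors, targets and inhibition, while the signalling Smads Smad2 and Smad4 had no call. Without OKMS MEF replicate 2 the adjusted p of Tgfbr2 was 0.0565.

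AP-1 factors, Fos and Jun family proteins that are induced by serum and stress, had 7 of 10 members lower and none higher. The count was 4 without E-CAD- 2NG- replicate 2, without replicate 3 or without OKMS MEF replicate 2. Fosb was at 112 and 161 CPM in the MEFs and at 7.40, 4.81 and 30.7 CPM in the sorted cells (log2 fold change -3.27, SE 0.69, adjusted p = 4.80e-04). Fosl2 was at 81.1 and 144 CPM against 3.23, 14.8 and 4.73 CPM (log2 fold change -3.97, SE 0.90, adjusted p = 0.00100), and Junb at 34.5 and 47.3 CPM against 6.83, 8.58 and 2.45 CPM (log2 fold change -2.81, SE 0.63, adjusted p = 8.15e-04). Fos itself overlapped between the groups with 47.9 and 80.3 CPM and 26.2, 15.4 and 79.2 CPM (adjusted p = 0.477). Fosb, Jun and Fos were highest in replicate 3 among the sorted libraries.

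Actin and contractile genes, the stress fibre apparatus of fibroblasts, fell almost throughout: 26 of 30 genes were lower, none rose, and the median log2 fold change was -2.73. With any 1 of the 5 libraries left out, 25 were lower. Summed over the list, the libraries held 17928 and 18437 CPM in the MEFs and 3071, 2853 and 2342 CPM in the sorted cells. Tpm1, a tropomyosin that winds along actin filaments, was at 2392 and 2529 CPM in the MEFs and at 192, 148 and 129 CPM in the sorted cells (log2 fold change -4.00, SE 0.43, adjusted p = 4.89e-09). Flna, which cross-links actin filaments, went from 737 and 875 CPM to 131, 154 and 137 CPM (log2 fold change -2.55, SE 0.25, adjusted p = 8.47e-10). Vcl, the gene of vinculin, which couples focal adhesions to actin, went from 272 and 362 CPM to 34.7, 29.9 and 29.7 CPM (log2 fold change -3.35, SE 0.34, adjusted p = 2.02e-09). All 3 lay in a narrow range among the sorted libraries, several-fold below both MEF libraries. Acta2, the smooth muscle actin of myofibroblasts, went from 1811 and 1741 CPM to 299, 172 and 75.3 CPM (log2 fold change -3.30, SE 0.88, adjusted p = 0.00487), and here replicate 3 was the lowest. Srf, the factor that drives many of these genes through CArG boxes in their promoters, was at 28.0 and 47.5 CPM against 13.8, 14.8 and 22.3 CPM and missed the threshold (adjusted p = 0.0538).

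CArG boxes, the binding sites of Srf, were looked for on both strands from 250 bases before to 50 bases after the annotated start (RefSeq, GRCm38.p6). A match was found in 6 of the 28 genes of the actin and contractile list that have such a window (21.4%), in 1.67% of all genes tested that have one, in 3.31% of the genes that fell and in 1.16% of those that rose. Of all 32851 windows, 1.63% hold a match. The windows of 2 genes that fell are shown as examples, from a myosin and a focal adhesion gene. Only windows with a match were chosen, the first by position where a gene has several. Myl9, which encodes the regulatory light chain of myosin, has its window at chr2:156775214-156775513 on the plus strand. The window of Vcl is at chr14:20929148-20929447 on the plus strand. Both read from 5′ to 3′, and capitals mark the CArG box:
Myl9: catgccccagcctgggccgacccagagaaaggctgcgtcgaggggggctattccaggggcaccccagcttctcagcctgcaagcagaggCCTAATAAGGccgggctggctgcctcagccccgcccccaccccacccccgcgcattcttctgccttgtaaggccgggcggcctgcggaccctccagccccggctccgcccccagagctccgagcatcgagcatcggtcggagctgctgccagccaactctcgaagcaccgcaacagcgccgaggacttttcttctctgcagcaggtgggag
Vcl: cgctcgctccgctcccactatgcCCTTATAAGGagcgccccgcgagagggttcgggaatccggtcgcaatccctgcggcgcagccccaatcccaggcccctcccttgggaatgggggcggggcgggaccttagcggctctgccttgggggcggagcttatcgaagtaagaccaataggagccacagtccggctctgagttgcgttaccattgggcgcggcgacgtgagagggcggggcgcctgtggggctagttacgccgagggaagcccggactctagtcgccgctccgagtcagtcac

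Myl9 itself was at 533 and 502 CPM in the MEFs and at 68.3, 65.6 and 35.9 CPM in the E-CAD- 2NG- cells (log2 fold change -3.22, SE 0.84, adjusted p = 0.00414). A match is a description of the sequence, and binding was not measured.

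**Figure D2:**
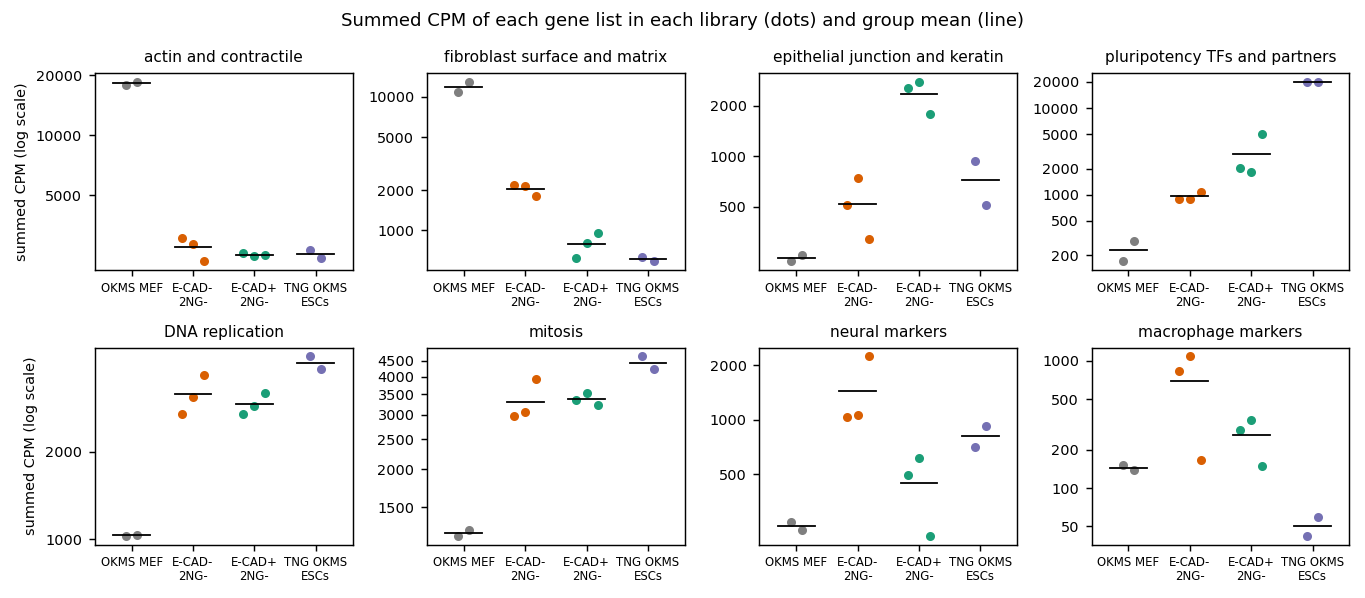
Summed CPM of 8 gene lists (log scale) in each OKMS MEF, E-CAD- 2NG-, E-CAD+ 2NG- and TNG OKMS ESC library (dots, 2, 3, 3 and 2 libraries) with the group mean (line). The actin and fibroblast sums of the E-CAD- 2NG- cells lie near those of the E-CAD+ 2NG- cells or between them and the MEFs, their epithelial and pluripotency sums lie between MEFs and E-CAD+ 2NG- cells, and of these 4 groups the E-CAD- 2NG- cells have the highest mean neural sum.

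Epithelial junction and keratin genes rose although the cells were sorted as E-CAD-: 19 of 30 tested were higher and none lower. The median log2 fold change was 2.95, or 2.84 when genes with no MEF read were set to their lower bound. Without OKMS MEF replicate 2 the count was 12. Summed over the list, the libraries held 236 and 258 CPM in the MEFs, 508, 738 and 318 CPM in the E-CAD- 2NG- cells and 2532, 2759.7 and 1788 CPM in the E-CAD+ 2NG- cells. Replicate 2 held the highest of the 3 sums and replicate 3 lay nearest to the MEFs. Epcam, a homophilic adhesion molecule of epithelia and of pluripotent cells, was at 0 and 0.573 CPM in the MEFs and at 18.6, 24.7 and 5.54 CPM in the sorted cells (log2 fold change 5.47, SE 0.76, adjusted p = 8.95e-07). Cldn7, a claudin of tight junctions, had no read in the MEFs and 15.0, 23.7 and 3.91 CPM in the sorted cells, at least 66.8-fold higher (adjusted p = 1.15e-04). Like Cdh1, both were lowest in replicate 3, by more than the spread between the other sorted libraries. Krt8, a keratin of simple epithelia, was even among the sorted libraries with 67.9, 86.2 and 65.2 CPM against 6.87 and 6.30 CPM in the MEFs (log2 fold change 3.44, SE 0.62, adjusted p = 5.86e-05). Its partner Krt18 did not follow, with 26.5 and 23.8 CPM in the MEFs and 14.8, 18.9 and 14.8 CPM in the sorted cells (adjusted p = 0.306). Spint1, a membrane-bound protease inhibitor, went from 0.742 and 0.458 CPM to 8.54, 17.5 and 11.9 CPM (log2 fold change 4.36, SE 0.66, adjusted p = 3.96e-06). Crb3, a polarity protein of the apical membrane, had no MEF read and 3.42, 9.96 and 3.75 CPM in the sorted cells, at least 26.9-fold higher (adjusted p = 2.04e-05). F11r, a junctional adhesion molecule already present in the MEFs, was at 36.0 and 39.4 CPM against 39.1, 52.2 and 8.80 CPM, so the groups overlapped.

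The E-box letters CACCTG or CAGGTG, to which Snai and Zeb factors bind, were looked for in the same windows on both strands; the letters of one strand's motif are the reverse complement of the other, so each site counts once. Of the 19 genes of the epithelial junction and keratin list that have a window, 17 (89.5%) hold a match, against 21.6% of all genes tested, 20.9% of those that rose and 18.2% of those that fell. The share is 20.2% over all windows, 1 of 16 for the fibroblast surface and matrix list and 4 of 7 for the epithelial regulators. The windows of 4 genes that rose are shown because they cover an adhesion molecule, a claudin, a polarity protein and a keratin. Only windows with a match were chosen, the first by position where a gene has several. They are Epcam at chr17:87635729-87636028 (plus strand), Cldn7 at chr11:69965171-69965470 (plus strand), Crb3 at chr17:57061951-57062250 (plus strand) and Krt8 at chr15:102004293-102004592 (minus strand), on GRCm38.p6. They read from 5′ to 3′ on the strand of the gene, and capitals mark the E-box letters:
Epcam: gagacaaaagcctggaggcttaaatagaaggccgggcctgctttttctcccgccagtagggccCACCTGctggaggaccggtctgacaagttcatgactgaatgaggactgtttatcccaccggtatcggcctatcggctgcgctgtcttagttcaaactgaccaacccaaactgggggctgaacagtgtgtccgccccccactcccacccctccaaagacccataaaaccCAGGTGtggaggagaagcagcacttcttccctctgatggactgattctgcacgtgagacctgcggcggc
Cldn7: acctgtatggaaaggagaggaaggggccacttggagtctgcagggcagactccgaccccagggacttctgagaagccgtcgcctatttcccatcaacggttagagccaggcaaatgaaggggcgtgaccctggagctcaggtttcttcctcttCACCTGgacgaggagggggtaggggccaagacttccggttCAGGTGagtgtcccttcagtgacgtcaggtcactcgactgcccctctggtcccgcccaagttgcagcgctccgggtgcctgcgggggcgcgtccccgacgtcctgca
Crb3: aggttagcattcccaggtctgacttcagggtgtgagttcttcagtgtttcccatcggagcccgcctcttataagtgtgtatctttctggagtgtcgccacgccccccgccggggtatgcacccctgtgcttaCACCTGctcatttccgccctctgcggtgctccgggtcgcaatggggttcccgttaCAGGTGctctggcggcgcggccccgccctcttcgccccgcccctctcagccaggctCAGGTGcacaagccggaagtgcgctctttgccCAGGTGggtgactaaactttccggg
Krt8: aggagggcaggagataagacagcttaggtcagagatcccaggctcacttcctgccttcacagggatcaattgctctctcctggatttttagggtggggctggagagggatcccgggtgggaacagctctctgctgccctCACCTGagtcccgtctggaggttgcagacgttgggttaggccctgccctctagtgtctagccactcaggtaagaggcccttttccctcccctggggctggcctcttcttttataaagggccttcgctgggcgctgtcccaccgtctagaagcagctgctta

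Crb3 holds 4 matches, Epcam and Cldn7 hold 2 each and Krt8 holds 1. The list was chosen for function but with earlier results of these data known, and no binding was measured at these letters.

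Epithelial regulators, the factors and splicing proteins that establish epithelia, rose in 9 of 15 cases, and Klf5 fell. The median log2 fold change was 5.44, or 3.63 with genes without a MEF read at their bound, and the count was 4 without OKMS MEF replicate 2. Ap1m2, an adaptor for sorting proteins to the basolateral membrane, had no MEF read and 18.2, 3.78 and 6.36 CPM in the sorted cells, at least 44.5-fold higher (adjusted p = 2.53e-05). Elf3, an epithelial Ets factor, had 1 MEF read and 12.9, 9.27 and 1.63 CPM in the sorted cells, a ratio of 104 (95% exact interval 18.2 to 4129, adjusted p = 9.67e-05). Esrp1, which directs epithelial splicing, had no MEF read and 8.16, 3.43 and 0.815 CPM, at least 19.5-fold higher (adjusted p = 3.70e-04). Levels of these genes were low, and Elf3 and Esrp1 were lowest in replicate 3. Klf5 was at 14.5 and 25.9 CPM in the MEFs and at 4.36, 4.12 and 0.489 CPM in the sorted cells (log2 fold change -2.82, SE 0.50, adjusted p = 4.23e-05). Grhl2 and Ovol2, which repress Zeb1 in epithelial cells, were close to 0, with 0.569, 2.40 and 0 CPM of Grhl2 and 0, 0 and 1.63 CPM of Ovol2 in the 3 sorted libraries.

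**Figure D3:**
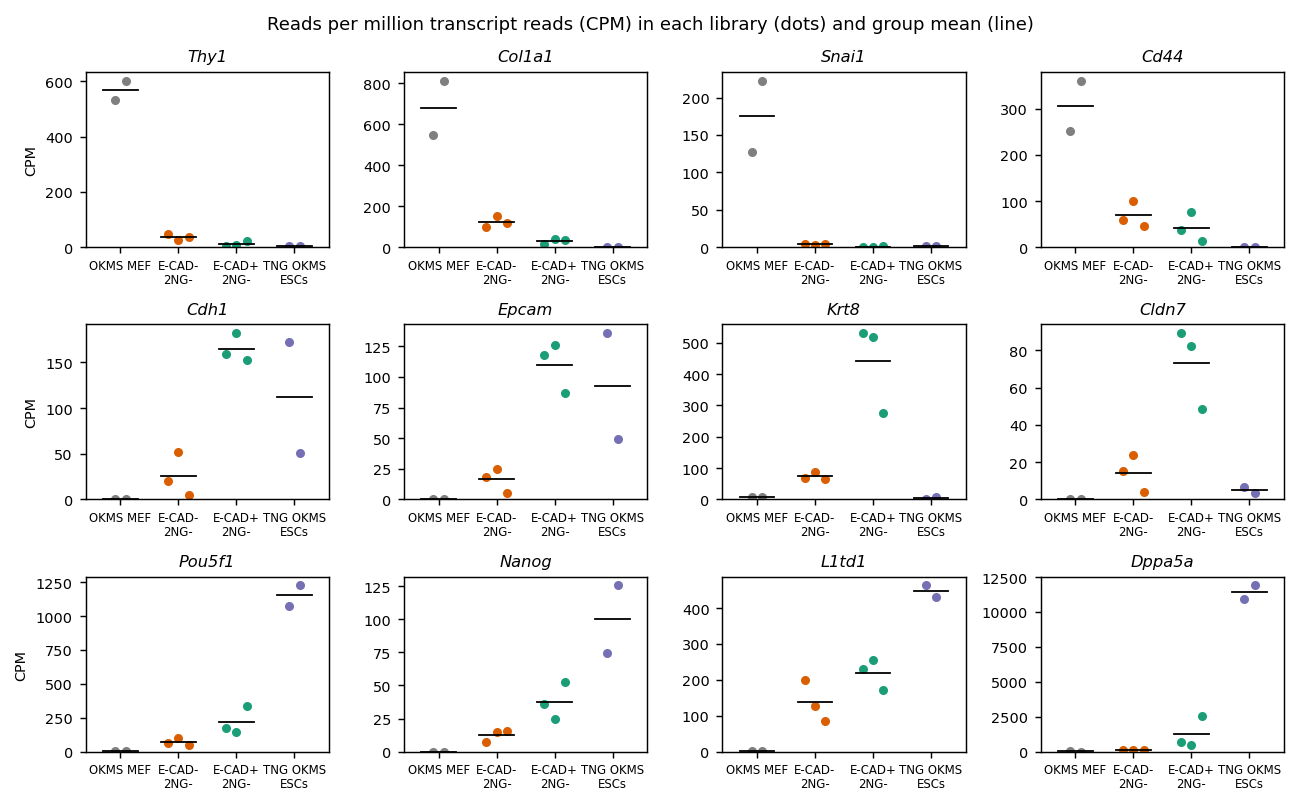
CPM of 12 genes in each OKMS MEF, E-CAD- 2NG-, E-CAD+ 2NG- and TNG OKMS ESC library (dots, 2, 3, 3 and 2 libraries) with the group mean (line); each panel has its own axis from 0. Thy1, Col1a1, Snai1 and Cd44 are highest in the MEFs; Cdh1, Epcam, Krt8 and Cldn7 are above the MEFs in E-CAD- 2NG- cells and far higher in E-CAD+ 2NG- cells; Dppa5a reaches 145 CPM in E-CAD- 2NG- cells and 10901 and 11932 CPM in ESCs.

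Pluripotency transcription factors and their partners rose in 30 of 41 cases and fell in 4. The median log2 fold change was 4.58, or 4.10 with genes without a MEF read at their bound. Summed levels were 171 and 294 CPM in the MEFs and 884, 904 and 1079 CPM in the sorted cells, against 19742 and 19866 CPM in TNG OKMS ESCs. L1td1, an RNA-binding protein of pluripotent cells, was at 0.371 and 0.344 CPM in the MEFs and at 199, 128 and 86.3 CPM in the sorted cells (log2 fold change 8.54, SE 0.63, adjusted p = 6.66e-13), below the ESC level of 465 and 431 CPM. Tdgf1, the Nodal co-receptor Cripto, had 3 MEF reads and 19.9, 51.2 and 37.0 CPM in the sorted cells, a ratio of 158 (95% exact interval 53.8 to 769.5, adjusted p = 1.38e-08). Nr0b1, the nuclear receptor Dax1, had no MEF read and 32.3, 19.6 and 21.4 CPM, at least 115-fold higher (adjusted p = 1.47e-08). Gdf3, a TGF-beta family ligand, had 3 MEF reads and 38.9, 37.8 and 103 CPM, a ratio of 312 (106 to 1514, adjusted p = 3.74e-07). All 4 genes were read in every sorted library, and Gdf3 was highest in replicate 3.

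Several members split the sorted libraries. Lin28a, which blocks let-7 maturation, had 3.42, 0.687 and 47.0 CPM in the 3 libraries and no MEF read, at least 80.1-fold higher (adjusted p = 0.00169). Sall4, a zinc finger factor of ESCs, had 2 MEF reads and 17.6, 9.96 and 55.4 CPM, a ratio of 228 (62.7 to 1887, adjusted p = 8.91e-06). Lefty1, a Nodal antagonist, went from 0.557 and 3.89 CPM to 6.07, 10.6 and 71.9 CPM (log2 fold change 3.598, SE 1.22, adjusted p = 0.0291). For these 3 genes replicate 3 was clearly highest, the reverse of Cdh1, Epcam and Utf1. Without replicate 3 the adjusted p was 0.0744 for Lin28a and 0.331 for Lefty1, without OKMS MEF replicate 2 it was 0.0503 and 0.0772, and without MEF replicate 1 it was 0.209 for Lefty1. Utf1 had no MEF read and 19.2, 17.2 and 3.59 CPM in the sorted cells, at least 62.6-fold higher (adjusted p = 1.71e-06).

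Genes of the late, naive network were low. Esrrb, an orphan nuclear receptor of naive ESCs, had 1 MEF read and 0.190, 1.03 and 0.489 CPM in the sorted cells with no call (adjusted p = 0.207), against 163 and 184 CPM in the ESCs. Zfp42 (Rex1) rose from 0 and 0.802 CPM to 13.7, 4.81 and 6.36 CPM (log2 fold change 4.10, SE 0.80, adjusted p = 1.65e-04), against 857 and 1053 CPM in ESCs. Dppa5a went from 7.79 and 2.52 CPM to 145, 142 and 80.1 CPM (log2 fold change 4.58, SE 0.61, adjusted p = 4.15e-07), against 10901 and 11932 CPM in ESCs. Dppa4, also a gene of the late phase, had 3.23, 0 and 0.978 CPM with 12.9% unique reads, and Dnmt3l had 0.190, 1.37 and 0 CPM against 370.1 and 277 CPM in ESCs. Besides Klf4 and Klf5, the naive factors Klf2 and Tbx3 fell: Klf2 went from 12.4 and 23.2 CPM to 3.42, 5.84 and 7.34 CPM (log2 fold change -1.72, SE 0.49, adjusted p = 0.00843; adjusted p = 0.0533 without E-CAD- 2NG- replicate 1 and 0.148 without MEF replicate 2) and Tbx3 from 18.6 and 24.2 CPM to 1.52, 4.46 and 1.63 CPM (log2 fold change -3.22, SE 0.56, adjusted p = 3.18e-05). Of the 7 pluripotent-defining markers (Nanog, Zfp42, Esrrb, Dppa5a, Dppa3, Tdgf1 and Utf1), 6 rose, and Esrrb did not pass.

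On the surface of pluripotent cells, 7 of 14 genes tested rose and 3 fell. Alpl, the alkaline phosphatase by which pluripotent colonies are stained, had 2 MEF reads and 53.7, 119 and 84.8 CPM in the sorted cells, a ratio of 567 (95% exact interval 157 to 4689, adjusted p = 6.20e-10). Kit, a receptor tyrosine kinase, had no MEF read and 23.0, 20.3 and 18.6 CPM, at least 97.0-fold higher (adjusted p = 5.48e-08). Bst2 went from 14.7 and 13.4 CPM to 172, 155 and 53.8 CPM (log2 fold change 3.16, SE 0.50, adjusted p = 8.74e-06). All 3 were higher in every E-CAD- 2NG- library than in both ESC libraries, where Alpl was at 41.1 and 42.8 CPM, Kit at 14.2 and 13.997 CPM and Bst2 at 46.1 and 45.1 CPM. Cd9, a tetraspanin, was at 175 and 178 CPM in the MEFs and at 212, 244 and 106 CPM in the sorted cells (adjusted p = 0.973), and the sign of its small change turned with the normalization.

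Proliferation genes rose nearly throughout. Of 34 DNA replication genes 31 were higher and none lower (median 1.68), and of 30 mitosis genes 27 were higher and none lower (median 1.39). Summed levels of the replication list were 1028 and 1032 CPM in the MEFs and 2704, 3088 and 3677 CPM in the sorted cells. Those of the mitosis list were 1215 and 1262 CPM against 2980, 3056 and 3915 CPM. Wild-type MEFs lay between, with 1714 and 1531 CPM for replication and 2381 and 2174 CPM for mitosis. MKOS MEFs held 1253 and 1134 CPM for replication and 1426 and 1441 CPM for mitosis. Pcna, the sliding clamp of DNA polymerases, was at 62.4 and 78.3 CPM in the MEFs and at 349, 437 and 374 CPM in the sorted cells (log2 fold change 2.43, SE 0.27, adjusted p = 1.60e-08). Uhrf1, which brings the maintenance DNA methyltransferase to replicated DNA, went from 31.4 and 39.5 CPM to 122, 126 and 179 CPM (log2 fold change 1.97, SE 0.24, adjusted p = 6.06e-08). Chaf1b, a subunit of the chromatin assembly factor, went from 8.35 and 15.0 CPM to 56.5, 65.9 and 63.9 CPM (log2 fold change 2.38, SE 0.31, adjusted p = 3.63e-07). All 3 sorted libraries lay well above both MEF libraries for these genes. Gins2, a part of the replicative helicase, did not pass, with 80.2 and 52.4 CPM against 59.0, 61.5 and 91.1 CPM (adjusted p = 1.00). In mitosis, Aurkb, the kinase of the chromosomal passenger complex, went from 17.1 and 11.2 CPM to 73.2, 59.1 and 88.4 CPM (log2 fold change 2.33, SE 0.30, adjusted p = 2.31e-07) and Nusap1, a spindle protein, from 40.1 and 35.5 CPM to 158, 164 and 166 CPM (log2 fold change 2.06, SE 0.27, adjusted p = 2.60e-07).

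The list of the Ink4-p53 barrier and cyclins holds genes that halt the cycle of fibroblasts together with cyclins and Cdk4, which drive it; 8 of its 22 members were lower, and Ccne1 rose. The number that fell was 5 without OKMS MEF replicate 1 or without replicate 2. Mdm2, a p53 target and its ubiquitin ligase, was at 267 and 305 CPM in the MEFs and at 47.6, 44.6 and 20.4 CPM in the sorted cells (log2 fold change -2.95, SE 0.50, adjusted p = 2.66e-05). Ccng1, another p53 target, went from 468 and 635 CPM to 139, 157 and 84.0 CPM (log2 fold change -2.14, SE 0.43, adjusted p = 2.59e-04). Cdkn2a, the locus of p16 and p19, went from 139.8 and 144 CPM to 30.9, 52.9 and 7.83 CPM (log2 fold change -2.26, SE 0.64, adjusted p = 0.00877), and Cdkn1a (p21) from 654 and 766 CPM to 337, 349 and 139 CPM (log2 fold change -1.38, SE 0.46, adjusted p = 0.0241). All 4 were lowest in replicate 3, and Cdkn1a remained far above its ESC level of 27.8 and 26.6 CPM. Trp53 itself was at 74.4 and 89.3 CPM against 186, 118 and 168 CPM and missed the threshold (adjusted p = 0.0679). Ccne1, cyclin E1, went from 13.9 and 14.4 CPM to 21.2, 45.3 and 29.5 CPM (log2 fold change 1.12, SE 0.30, adjusted p = 0.00557). The adjusted p was 0.103 for Ccne1 without OKMS MEF replicate 2 and 0.0630 without E-CAD- 2NG- replicate 2. Without E-CAD- 2NG- replicate 3 it was 0.0606 for Cdkn2a and 0.137 for Cdkn1a, which also lost its call without MEF replicate 1 (0.0840) and without MEF replicate 2 (0.0885).

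Chromatin and DNA methylation genes rose in 15 of 26 cases and none fell (median 1.10); the count was 9 without E-CAD- 2NG- replicate 3 or without OKMS MEF replicate 1. Dnmt1, the maintenance methyltransferase, was at 46.0 and 42.9 CPM in the MEFs and at 126, 127 and 131 CPM in the sorted cells (log2 fold change 1.48, SE 0.24, adjusted p = 1.04e-05). Ezh2, the methyltransferase of polycomb complex 2, went from 11.3 and 18.9 CPM to 55.8, 59.1 and 92.8 CPM (log2 fold change 2.16, SE 0.37, adjusted p = 2.37e-05). Hells, a remodeller needed for DNA methylation, went from 16.0 and 15.7 CPM to 52.4, 44.6 and 49.1 CPM (log2 fold change 1.59, SE 0.28, adjusted p = 3.50e-05). Tet1 rose from 0.557 and 4.35 CPM to 15.2, 15.1 and 17.4 CPM (log2 fold change 2.58, SE 0.59, adjusted p = 0.00115), and the de novo enzyme Dnmt3b from 1.67 and 1.95 CPM to 12.3, 10.6 and 26.7 CPM (log2 fold change 3.16, SE 0.86, adjusted p = 0.00601), both below the ESC levels of 315 and 201 CPM for Tet1 and 295 and 81.6 CPM for Dnmt3b. The adjusted p of Tet1 was 0.0503 without MEF replicate 1, and that of Dnmt3b was 0.0845 without MEF replicate 2. Glycolysis genes changed less: 3 of 20 rose and 1 fell, near the background. Hk2 went from 152 and 168 CPM to 265, 388 and 354 CPM (log2 fold change 1.03, SE 0.28, adjusted p = 0.00641) and Hk1, another hexokinase, from 31.7 and 46.3 CPM to 22.6, 10.99 and 13.4 CPM (log2 fold change -1.31, SE 0.40, adjusted p = 0.0146). Without OKMS MEF replicate 2 the adjusted p was 0.0863 for Hk2 and 0.124 for Hk1, and no glycolysis gene was called higher; Hk1 was also lost without E-CAD- 2NG- replicate 2 (0.0755) and without replicate 3 (0.0672). Gapdh was at 4765 and 3718 CPM against 3646, 3556 and 4098 CPM (adjusted p = 0.665).

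Some lists had few or no calls. No Hox gene of 32 tested was called in either direction (median -1.32), and with other settings between 0 and 5 were lower. At an unadjusted p under 0.05, 5 of the 32 were lower, and the list summed to 179 and 298 CPM in the MEFs and 81.6, 105 and 148 CPM in the sorted cells. Hoxa7 was at 21.5 and 17.4 CPM in the MEFs and at 18.0, 23.0 and 18.6 CPM in the sorted cells, and Hoxa5 at 15.2 and 37.3 CPM against 5.12, 13.7 and 8.64 CPM. Fibroblasts keep the Hox code of their place in the body, and these 2 genes were still read in every sorted library, against ESC levels of 0.838 and 1.86 CPM for Hoxa7 and 0 and 0 CPM for Hoxa5. Of 23 interferon-stimulated genes 2 rose and 2 fell: Bst2 and the class I gene H2-K1 were higher, and B2m and Gbp2 lower. The sum of the list went from 1274 and 1077 CPM to 528, 589 and 434 CPM. H2-K1 went from 3.16 and 8.93 CPM to 30.9, 40.2 and 31.5 CPM (log2 fold change 2.47, SE 0.54, adjusted p = 6.35e-04) while B2m, its light chain, went from 1124 and 914 CPM to 219.5, 297 and 283 CPM (log2 fold change -1.99, SE 0.44, adjusted p = 7.14e-04). Of 18 germline genes, Tex19.1 rose and Ddx4 fell. Tex19.1 had no MEF read and 4.74, 4.46 and 0.163 CPM in the sorted cells, at least 14.7-fold higher (adjusted p = 0.00341, and 0.0815 without OKMS MEF replicate 2). Ddx4, the Vasa helicase, had 9.09 and 5.38 CPM in the MEFs and no read in the sorted cells, at least 34.5-fold lower (adjusted p = 1.55e-04).

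The 12 largest fitted rises among called genes with at least 30 CPM were of metabolic, hormonal, neuronal and placental genes with at most 1 read in the MEFs. The fitted fold of a gene without a MEF read depends on a small count that the fit adds, so the ranking favours such genes. Alpl and Gdf3, with ratios of 567 and 312, are outside the 12, while Insm1 and Mfng, with lower bounds of 173 and 177, are inside. Slc7a3, a transporter of cationic amino acids, had no MEF read and 103, 130.1 and 37.7 CPM in the sorted cells, at least 425-fold higher (adjusted p = 1.53e-10). Tdh, the threonine dehydrogenase on which mouse ESCs depend, had 107, 93.7 and 48.6 CPM and no MEF read, at least 392-fold higher (adjusted p = 9.24e-12). Trh, the precursor of thyrotropin-releasing hormone, had 56.2, 50.8 and 103 CPM and no MEF read, at least 329.5-fold higher (adjusted p = 4.35e-07). Levels of Slc7a3 and Tdh were lowest in replicate 3 and that of Trh was highest there. ESCs expressed all 3, with 154 and 146 CPM of Slc7a3, 436 and 714 CPM of Tdh and 137 and 103 CPM of Trh. Only 50.01% of the Slc7a3 reads were unique. Rhox6, a placental homeobox gene with near copies, and Gpx2-ps1, a pseudogene, also belonged to the 12 largest rises, but 7.33% and 1.76% of their reads were unique, so their counts are uncertain; the adjusted p of Rhox6 was 0.0533 without OKMS MEF replicate 2.

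The other 7 of the 12 were neuronal or neuroendocrine genes, and Mfng, which modifies Notch. Insm1, a zinc finger factor of neuroendocrine progenitors, had no MEF read and 26.2, 42.9 and 41.1 CPM, at least 173-fold higher (adjusted p = 1.42e-04). Igfbpl1 had 35.3, 16.5 and 83.3 CPM and no MEF read, at least 212-fold higher (adjusted p = 2.81e-04). It was highest in replicate 3 and lowest in replicate 2. ESCs had 3.86 and 0.656 CPM of Insm1 and 4.53 and 2.73 CPM of Igfbpl1. Mfng had 44.4, 19.9 and 48.3 CPM and no MEF read, at least 177-fold higher (adjusted p = 4.62e-06). Pcsk2, a prohormone convertase, was at least 182-fold higher with 25.8, 13.0 and 77.4 CPM (adjusted p = 5.60e-04). Necab1, a neuronal calcium-binding protein, was at least 169.6-fold higher with 36.6, 46.7 and 24.8 CPM (adjusted p = 1.60e-04). Gng3, a G protein subunit of brain, was at least 282-fold higher with 46.3, 32.3 and 101.3 CPM (adjusted p = 2.25e-09). In ESCs Mfng was at 4.19 and 5.25 CPM, Pcsk2 at 3.02 and 1.97 CPM and Necab1 at 2.18 and 0.984 CPM. Gng3 was not particular to the E-CAD- cells. It was at 31.3 and 13.8 CPM in ESCs and at 22.7, 32.6 and 35.8 CPM in OKMS E-CAD+ 2NG- cells. MKOS E-CAD+ 2NG- cells had 61.2, 36.2 and 32.8 CPM of Gng3.

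Of the list of neural markers, 5 of 11 tested were higher and none lower. The count was 3 without E-CAD- 2NG- replicate 3 and 1 without OKMS MEF replicate 2. Summed levels were 271 and 247 CPM in the MEFs and 1038, 1057 and 2239 CPM in the sorted cells, mostly from Stmn2. MKOS E-CAD+ 2NG- cells, with 1833, 1873 and 1292 CPM, were in the same range. Stmn2, which regulates microtubules in growing axons, went from 193 and 121 CPM to 782, 876 and 1600.5 CPM (log2 fold change 2.72, SE 0.40, adjusted p = 2.01e-06). Tubb3, the neuronal beta-tubulin, went from 41.9 and 31.7 CPM to 153, 99.6 and 464 CPM (log2 fold change 2.62, SE 0.62, adjusted p = 0.00169). Sox1, a factor of neural progenitors, had no MEF read and 20.5, 15.1 and 17.6 CPM in the sorted cells, at least 83.5-fold higher (adjusted p = 0.00289). Dcx, a microtubule protein of migrating neurons, also had no MEF read and was at 11.2, 5.15 and 39.8 CPM, at least 88.1-fold higher (adjusted p = 0.0157). Replicate 3 was highest for Stmn2, Tubb3, Dcx and Pax6, with Pax6 at 1.14, 2.06 and 21.2 CPM in the 3 libraries. Without OKMS MEF replicate 2 the adjusted p was 0.0575 for Tubb3, 0.0625 for Sox1, 0.141 for Dcx and 0.228 for Pax6. Without E-CAD- 2NG- replicate 3 it was 0.0603 for Dcx and 0.219 for Pax6, and Dcx was also lost without MEF replicate 1 (0.101) and with DESeq2's Wald test. Olig2, which marks oligodendrocyte precursors, had no read in any of the 5 libraries. The part of neural cells in the results was not tested.

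**Figure D4:**
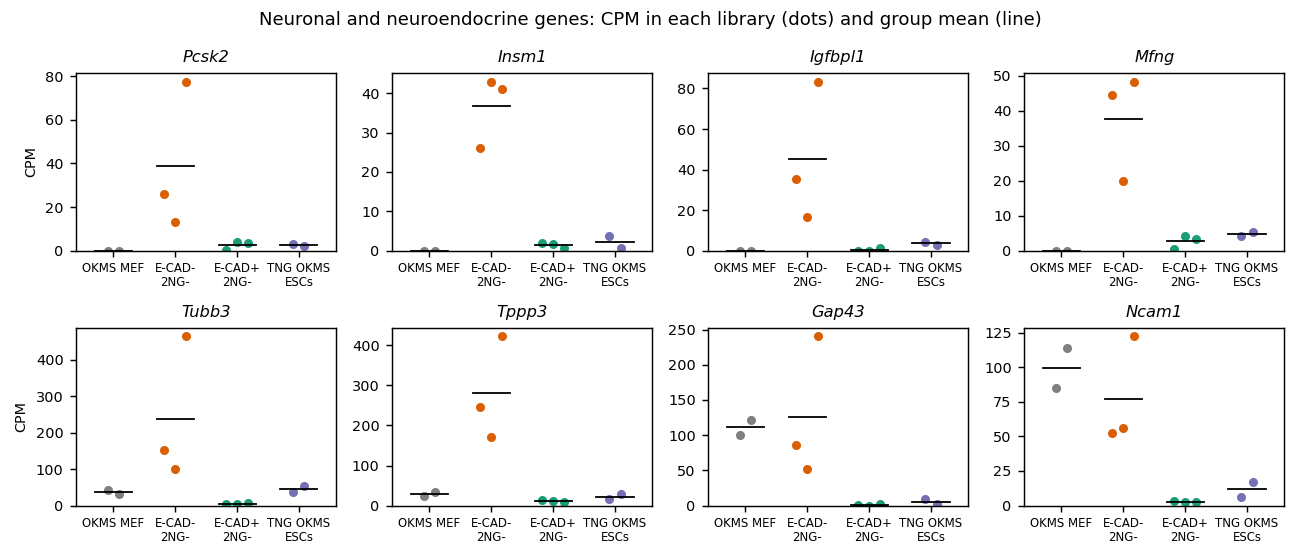
CPM of 8 genes, neuronal or neuroendocrine except Mfng, in each OKMS MEF, E-CAD- 2NG-, E-CAD+ 2NG- and TNG OKMS ESC library. Dots are libraries (2, 3, 3 and 2) and the line is the group mean. Each panel has its own axis from 0. Pcsk2, Insm1, Igfbpl1 and Mfng are near 0 in MEFs and high in E-CAD- 2NG- cells. Tubb3 and Tppp3 are higher than in MEFs, and Gap43 and Ncam1 overlap with the MEFs. Every panel has E-CAD+ 2NG- cells below the E-CAD- 2NG- cells, but Tubb3, Tppp3, Gap43 and Ncam1 were named for that difference. Gng3, which has no panel, overlapped between E-CAD+ and E-CAD- 2NG- cells.

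The 12 largest falls included secreted proteins, transcription factors, enzymes and a transporter. Prl2c2, the placental and fibroblast hormone proliferin, was at 71.3 and 66.1 CPM in the MEFs and at 0, 0 and 1.14 CPM in the sorted cells (log2 fold change -7.28, SE 1.79, adjusted p = 0.00269), while wild-type MEFs had 2.04 and 3.47 CPM. Clu, the secreted chaperone clusterin, went from 426 and 455 CPM to 10.1, 6.18 and 6.52 CPM (log2 fold change -5.87, SE 0.56, adjusted p = 5.25e-10). Hbegf, an EGF receptor ligand, went from 110.2 and 139.6 CPM to 1.71, 4.12 and 2.28 CPM (log2 fold change -5.63, SE 0.55, adjusted p = 5.64e-10). Ptgs1, the constitutive cyclooxygenase, went from 62.7 and 73.6 CPM to 0.569, 2.75 and 0 CPM (log2 fold change -6.20, SE 1.19, adjusted p = 1.43e-04). For each of these genes the highest sorted library lay far below the lower MEF library. The others were Clca1, Twist2, Slc14a1 (a urea transporter), Crispld2, Igfbp6, Vasn, Snai1 and Clmp, with fitted log2 fold changes between -5.41 (Clmp) and -7.04 (Clca1). Igfbp6, which sequesters insulin-like growth factor 2, went from 110.4 and 116 CPM to 4.74, 0 and 1.63 CPM (log2 fold change -5.62, SE 1.03, adjusted p = 8.82e-05).

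Among the most abundant transcripts, Lgals1 fell from 19009 and 14393 CPM to 1911, 1813 and 941 CPM (log2 fold change -3.46, SE 0.52, adjusted p = 3.02e-06); it encodes galectin 1. Tmsb4x and Tmsb10, which bind actin monomers, fell as well: Tmsb4x went from 15393 and 12565 CPM to 4274, 5702 and 5474 CPM (log2 fold change -1.50, SE 0.44, adjusted p = 0.0112) and Tmsb10 from 8249.8 and 7344 CPM to 3855, 4359 and 5971 CPM (log2 fold change -0.78, SE 0.22, adjusted p = 0.00762), with 9.08% unique reads for Tmsb10. Npm1, the nucleolar protein nucleophosmin, rose from 1998 and 1738 CPM to 4356, 6052 and 5759.9 CPM (log2 fold change 1.47, SE 0.28, adjusted p = 1.03e-04). The ribosomal protein genes Rps16, Rps18 and Rps29 were the other abundant genes that rose, by less: Rps16 went from 3689.9 and 3192 CPM to 6054, 6509 and 5105 CPM (log2 fold change 0.73, SE 0.19, adjusted p = 0.00415). Their calls were all lost without OKMS MEF replicate 2 (Rps16 0.199, Rps18 0.433, Rps29 0.412), and 6.29% of the Rps18 and 4.39% of the Rps29 reads were unique. Ftl1, ferritin light chain, fell from 7588 and 6787 CPM to 4551, 3654 and 2639 CPM (log2 fold change -1.02, SE 0.26, adjusted p = 0.00354), with 2.16% unique reads. Without OKMS MEF replicate 1 the adjusted p was 0.0796 for Ftl1, 0.122 for Tmsb4x and 0.159 for Tmsb10.

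Markers of other cell types that the gate could hold were read over whole lists. Macrophage markers had 1 of 14 tested members higher, Laptm5, which ESCs express too (28.8 and 43.8 CPM). Their summed level was 151 and 138 CPM in the MEFs and 836, 1080.1 and 167 CPM in the sorted cells, mostly from Lyz2 with 689, 853 and 120.3 CPM. Ptprc (CD45), which all leukocytes carry, was at 0.371 and 1.83 CPM against 0.379, 1.37 and 1.63 CPM, and 5 of the 14 members lay above the MEFs in all 3 sorted libraries and none below, against 21.7% and 24.9% of all genes tested. C1qc, a complement gene of macrophages, had 3 reads over both MEF libraries and 10.4, 12.7 and 1.30 CPM in the sorted cells, a ratio of 32.9 (10.9 to 162, adjusted p = 0.109). The macrophage sum was high in replicates 1 and 2 and near the MEF level in replicate 3, opposite to the neural sum. This order was not particular to the E-CAD- cells. The macrophage sum was 1846, 994 and 178 CPM in MKOS E-CAD+ 2NG- cells and 288, 344 and 148 CPM in OKMS E-CAD+ 2NG- cells. The part of macrophages in the results was not tested. With 4 of the 6 other settings, 4 to 7 of these markers were called higher. Of the trophoblast markers, Tfap2c and Eomes rose of 8, and Eomes was read in replicate 3 alone with 0, 0 and 32.9 CPM; without OKMS MEF replicate 2 neither was called (adjusted p = 0.0525 and 0.170), and Eomes was at 0.108 without MEF replicate 1. Of 14 primitive endoderm markers Lama1 rose and 3 fell, and the defining markers Sox17 and Foxa2 had 0, 2.06 and 1.47 CPM and 0, 0 and 0.326 CPM in the sorted cells. Of 4 red cell markers tested Hbb-y, an embryonic globin, rose: it had no MEF read and 19.5, 12.7 and 11.4 CPM in the sorted cells, at least 68.5-fold higher (adjusted p = 0.00247, and 0.0531 without OKMS MEF replicate 2). Endothelial markers had 1 of 10 lower, skeletal muscle markers 1 higher and 3 lower of 9, and cartilage (8) and keratinocyte (6) markers no call; 1 cartilage marker was lower under 4 of the 6 other settings. Endothelial markers were called higher in 1 to 4 cases under 5 of the 6 other settings, and the 1 that was lower had no call under 2 of them. With any 1 library left out no muscle marker was higher, and without E-CAD- 2NG- replicate 3 or OKMS MEF replicate 1 only 1 was lower. In edgeR, at an unadjusted p under 0.05, 2 cartilage markers and 1 keratinocyte marker were lower.

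E-CAD- and E-CAD+ cells of the same gate and cassette were compared next, to show how the E-CAD- 2NG- cells stand; this comparison uses the same 3 E-CAD- libraries as the one with MEFs. It called 372 genes (2.38%), of which 108 (0.691%) were higher and 264 (1.69%) lower in E-CAD- cells. Epithelial junction and keratin genes were lower in 16 of 30 cases and higher in none, epithelial regulators lower in 7 of 15, pluripotency factors lower in 14 of 41 and the pluripotent-defining markers lower in 7 of 7. Against the MEFs the same lists had 19, 9, 30 and 6 members higher. Without E-CAD+ 2NG- replicate 3 the numbers of pluripotency factors and defining markers that were lower were 7 and 4, and without E-CAD- 2NG- replicate 3 that of the regulators was 4. Cdh1, on whose protein the 2 groups were sorted, had a log2 difference of -2.87 (SE 0.43, adjusted p = 5.26e-05), Krt8 one of -2.73 (SE 0.48, adjusted p = 5.10e-04) and Dppa5a one of -3.53 (SE 0.46, adjusted p = 2.90e-06). Esrrb was at 14.1, 13.9 and 15.0 CPM in the E-CAD+ cells and differed by -4.96 on the log2 scale in the E-CAD- cells (adjusted p = 7.27e-07). Pou5f1 was at 174, 144 and 333 CPM in the E-CAD+ cells and differed by -1.85 (adjusted p = 0.00123). Cldn6, a claudin of early embryos, was at 217, 185 and 287 CPM in E-CAD+ cells and at 12.1, 20.3 and 15.0 CPM in E-CAD- cells (log2 difference -4.04, SE 0.60, adjusted p = 4.82e-05), and Grb7, a signalling adaptor, at 31.4, 40.0 and 41.8 CPM and 6.64, 9.27 and 2.93 CPM (log2 difference -2.76, SE 0.42, adjusted p = 5.26e-05). For these genes other than Esrrb the E-CAD- cells lay between the MEFs and the E-CAD+ cells. Esrrb, with 7 reads in the E-CAD- cells and 1 in the MEFs, had no call between those groups.

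On the mesenchymal side, collagens were higher in E-CAD- than in E-CAD+ cells in 6 of 19 cases, fibroblast-defining markers in 4 of 11, the larger list of fibroblast surface and matrix genes in 2 of 31 and matrix proteases and inhibitors in 1 of 20, and none was lower. With 1 library left out the count of 2 was 1 to 8 and that of 1 was 1 to 3. Without E-CAD+ 2NG- replicate 1 the counts of collagens and defining markers were 1 and 1; that of the defining markers was 2 without E-CAD+ replicate 2 or E-CAD- replicate 3 and 8 without E-CAD+ replicate 3. Vim was at 47.7, 114 and 92.0 CPM in E-CAD+ cells, and E-CAD- cells were 2.39 higher on the log2 scale (SE 0.48, adjusted p = 0.00226). Col1a1 was at 15.2, 39.7 and 34.2 CPM there and 1.89 higher in E-CAD- cells (SE 0.49, adjusted p = 0.0248). Zeb1, at 1.19, 0 and 1.76 CPM in E-CAD+ cells, was 3.48 higher (SE 0.65, adjusted p = 0.00103) and Zeb2, at 1.36, 0 and 3.17 CPM, was 3.36 higher (SE 0.91, adjusted p = 0.0321). These 2 factors are the members of the mesenchymal list of 29 that were called here, and neither was called against the MEFs. Without 1 library the calls of Col1a1 and Zeb2 were lost in 4 of 6 cases each, and the adjusted p was highest without E-CAD+ 2NG- replicate 1 for Col1a1 (0.168) and without E-CAD+ replicate 2 for Zeb2 (0.152). DNA replication and mitosis lists had 0 of 34 and 1 of 30 members called in either direction. Pcna was at 314, 409 and 418 CPM in E-CAD+ cells (log2 difference -0.12, adjusted p = 0.879). Tpm1 was at 99.5, 111 and 142 CPM there (log2 difference 0.27, adjusted p = 0.822).

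The 6 genes with the lowest adjusted p on the higher side (Tubb3, Tppp3, Mtap1b, Gap43, Dpysl2 and Ncam1) are all known from neurons. Gap43, a growth cone protein, was at 1.02, 0 and 1.69 CPM in E-CAD+ cells and at 86.5, 51.8 and 240.2 CPM in E-CAD- cells, 6.58 higher on the log2 scale (SE 0.95, adjusted p = 2.88e-05). Tubb3 was 5.44 higher (SE 0.62, adjusted p = 5.25e-07), Tppp3 4.56 higher (SE 0.54, adjusted p = 5.66e-07) and Mtap1b 2.76 higher (SE 0.33, adjusted p = 7.27e-07). Ncam1, a neural adhesion molecule, was 4.5995 higher (SE 0.73, adjusted p = 9.47e-05), Insm1 4.51 (SE 1.10, adjusted p = 0.0175) and Mfng 3.67 (SE 0.83, adjusted p = 0.00812). The call of Insm1 was lost without any 1 library other than E-CAD- replicate 1 (adjusted p up to 0.0729) and that of Mfng without E-CAD+ replicate 1 (0.0664). Against the MEFs these genes had differed among themselves. Gap43, at 99.8 and 122 CPM in the MEFs, and Ncam1, at 85.4 and 114 CPM there, had no call (adjusted p = 0.971 and 0.723). Tppp3, a microtubule-binding protein, had risen from 23.8 and 34.2 CPM to 246, 171 and 423 CPM (log2 fold change 3.24, SE 0.59, adjusted p = 6.37e-05) and Mtap1b from 57.5 and 78.0 CPM to 114, 129 and 265 CPM (log2 fold change 1.28, SE 0.36, adjusted p = 0.00789). Against the MEFs the adjusted p of Mtap1b was 0.101 without E-CAD- 2NG- replicate 3, 0.0970 without MEF replicate 1 and 0.0564 without MEF replicate 2. The neural marker list, with 3 of 11 members higher than in E-CAD+ cells (1 without E-CAD- replicate 3), summed to 495, 616 and 228 CPM in the E-CAD+ libraries.

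The change from OKMS MEFs to E-CAD- 2NG- cells was last set against the change from MKOS MEFs to MKOS E-CAD+ 2NG- cells by the interaction contrast of the 4 groups. It called 383 genes (2.45%), 127 (0.813%) more positive and 256 (1.64%) more negative in the OKMS route. The difference of the log2 changes was more negative in the OKMS route for 8 of 30 actin and contractile genes and more positive for 1, Cnn3. The list started lower in the MKOS MEFs, with 9972 and 9754 CPM against 17928 and 18437 CPM in the OKMS MEFs. A more negative difference need not be a larger fall: Actn4, a cross-linker of actin, was at 112 and 155 CPM in the MKOS MEFs and 218, 275 and 155 CPM in the MKOS 2NG- cells, and in the OKMS route it went from 245 and 423 CPM to 115, 127 and 73.9 CPM (difference of the log2 changes -2.34, SE 0.38, adjusted p = 2.10e-04). Cnn2, a calponin, went from 477 and 391 CPM to 239.7, 177 and 127 CPM in the MKOS route and from 913 and 926 CPM to 109, 73.5 and 80.1 CPM in the OKMS route (difference -2.12, SE 0.51, adjusted p = 0.0134). Without MKOS MEF replicate 2 the count of 8 was 3, without MKOS E-CAD+ 2NG- replicate 1 it was 4, and without OKMS MEF replicate 1 or replicate 2 it was 5; the single gene Cnn3 was lost without several of the libraries. Epithelial junction and keratin genes had a more negative change in the OKMS route in 4 of 30 cases, 10 without E-CAD- 2NG- replicate 2 and 1 without MKOS MEF replicate 1. Krt8, at 3.28 and 7.98 CPM in the MKOS MEFs and 846, 915 and 572 CPM in the MKOS 2NG- cells, differed by -3.72 (SE 0.82, adjusted p = 0.00686). Of the pluripotency list 1 of 41 differed: Dppa5a was at 1719.6, 1926 and 2513 CPM in MKOS E-CAD+ 2NG- cells (difference -3.63, SE 0.77, adjusted p = 0.00465). Without MKOS MEF replicate 2 the adjusted p was 0.122 for Cnn2 and 0.0596 for Dppa5a, without OKMS MEF replicate 1 it was 0.0575 for Cnn2 and 0.171 for Dppa5a, without MKOS E-CAD+ 2NG- replicate 1 it was 0.0518 for Cnn2, and without MKOS MEF replicate 1 it was 0.0867 for Krt8. Sox11, a factor of neural and mesenchymal progenitors, was at 21.2 and 30.4 CPM in the MKOS MEFs and 2.86, 1.77 and 0.135 CPM in the MKOS 2NG- cells, and went from 13.5 and 52.6 CPM to 69.4, 99.9 and 181 CPM in the OKMS route (difference 5.79, SE 0.95, adjusted p = 2.10e-04). Gsta4, a glutathione transferase, went from 128 and 106 CPM to 54.8, 70.7 and 75.6 CPM in the MKOS route and from 83.7 and 67.4 CPM to 584, 901 and 399.8 CPM in the OKMS route (difference 3.87, SE 0.44, adjusted p = 2.46e-07). For both genes the MKOS libraries were lower after reprogramming and the OKMS libraries higher. The 2 routes differ in the gate on E-CAD as well as in the cassette, which cannot be told apart in this contrast.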

How the data were processed

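The authors made multiplexed 5′ end (STRT) libraries from sorted cells and deposited 1 table of raw read counts for transcripts, repeats and spike-ins, with replicates kept apart. The submitters' processing notes name Bowtie 0.12.7 and mm10 and the study's methods name mm9; the table places 67 transcripts on scaffolds named as in GRCm38, the build of the RefSeq windows shown. Reads with several positions were counted at the most 5′ exon, so the share of unique reads (over all 48 libraries) is given for the genes described where it is low. The annotation is not given in the sources used here.

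Groups were taken from the sample labels. Only the 24264 transcripts were used. Counts were fitted with edgeR 4.0.16 (R 4.3.3): TMM, filterByExpr by condition (15630 genes kept), 1 coefficient for each of the 20 conditions over all 48 libraries, glmQLFit and glmQLFTest, with Benjamini-Hochberg adjusted p at most 0.05 as the call. The SE is the absolute log2 fold change divided by the square root of F, and CPM is per 1000000 transcript reads without TMM. The OKMS MEF libraries held 5388144 and 8732413 reads and the E-CAD- 2NG- libraries 2912757 to 6133070. A gene with no MEF read was set against a floor of 3 reads over both MEF libraries (0.212 CPM), and a gene with 1 to 3 reads was given as a ratio of summed reads with an exact 95% binomial interval; both cover counting error only, since these are PCR reads without molecular identifiers. The code was tested on simulated counts.

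The genes named were those of the sort marker and reprogramming factor lists; the 12 largest called rises and 12 largest called falls with at least 30 CPM in the higher group and no overlap between groups; the 4 most abundant called genes without overlap in each direction; from each functional list (cell type marker lists excepted) up to 4 called genes with the lowest adjusted p and up to 2 abundant genes not called; and the 6 genes with the lowest adjusted p and at least 30 CPM in each direction of the other 2 comparisons; clone names were left out. These are 164 genes, not all of which are printed (2 results are not reported here), and 39 more were named with a test value after their values were seen, as were a few list members and cell type markers given only by name or level. Members and lists were chosen with earlier results of these data known. Alternatives were DESeq2 1.42.0 (Wald test or size factors), no filter on low counts, only the libraries compared, a replicate block, all 6 MEF libraries as reference, and each library left out in turn. Scripts used Python 3.11.15 with pandas 2.3.3, NumPy 2.4.6, SciPy 1.17.1 and Matplotlib 3.10.9.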

Additional observations from a re-analysis of the deposited data

Results flagged for a closer look

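The change from OKMS MEFs to E-CAD- 2NG- cells differed from the change from MKOS MEFs to MKOS E-CAD+ 2NG- cells for 30 of the genes named, by edgeR's test of the interaction. Values are differences of the log2 changes, OKMS minus MKOS, and the gate on E-CAD and the cassette cannot be told apart. Groups held 2 or 3 libraries, so single libraries were not checked for standing apart. More positive in the OKMS route were Fam64a (4.40, SE 0.49, adjusted p = 2.13e-07), Gsta4 (3.87, SE 0.44, adjusted p = 2.46e-07), Nmral1 (2.89, SE 0.42, adjusted p = 3.27e-05), Gstm5 (3.61, SE 0.58, adjusted p = 1.65e-04), Sox11 (5.79, SE 0.95, adjusted p = 2.10e-04) and Prom1 (6.46, SE 1.10, adjusted p = 3.83e-04). Prom1 and Sox11 were at 1.70 and 1.59 CPM on average in the MKOS cells and at 48.7 and 117 CPM in the E-CAD- 2NG- cells. More positive were also Gap43 (5.31, SE 1.22, adjusted p = 0.00998), Aldoc (4.21, SE 1.17, adjusted p = 0.0429), Aurkb (1.39, SE 0.39, adjusted p = 0.0452) and Cnn3 (1.33, SE 0.37, adjusted p = 0.0429). Gap43 averaged 62.7 CPM in the MKOS MEFs and 1.75 CPM in the MKOS cells, against 111 and 126 CPM on the OKMS side.

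More negative in the OKMS route were the cytoskeletal genes Cnn2 (-2.12, SE 0.51, adjusted p = 0.0134), Actn4 (-2.34, SE 0.38, adjusted p = 2.10e-04), Csrp1 (-2.36, SE 0.55, adjusted p = 0.0117), Pdlim1 (-3.61, SE 0.49, adjusted p = 8.89e-06) and Anln (-1.49, SE 0.37, adjusted p = 0.0194), the epithelial and pluripotency genes Krt8 (-3.72, SE 0.82, adjusted p = 0.00686), Krt18 (-2.47, SE 0.67, adjusted p = 0.0375), Cd9 (-2.58, SE 0.50, adjusted p = 0.00192) and Dppa5a (-3.63, SE 0.77, adjusted p = 0.00465), and Clu (-2.69, SE 0.72, adjusted p = 0.0335), Ccnd3 (-1.46, SE 0.41, adjusted p = 0.0451), Hk1 (-2.24, SE 0.57, adjusted p = 0.0241), Mylpf (-5.10, SE 0.64, adjusted p = 2.45e-06), Capns1 (-2.43, SE 0.32, adjusted p = 7.14e-06), Rexo2 (-3.32, SE 0.45, adjusted p = 8.85e-06) and Nub1 (-2.70, SE 0.37, adjusted p = 1.28e-05). Cd9 averaged 188 CPM in the MKOS MEFs and 1217 CPM in the MKOS cells, against 176 and 187 CPM on the OKMS side.

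For 4 genes 1 of the MEF groups had no read, so that the fitted difference depends on the prior count and is no bound. Slc7a3 (7.31, adjusted p = 0.0119) and Necab1 (12.23, adjusted p = 0.00668) had none in the OKMS MEFs. Klk8 (-14.30, adjusted p = 1.08e-11) and Cldn6 (-8.91, adjusted p = 0.00656) had none in the MKOS MEFs.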

How the results depend on the processing

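The number of genes called between OKMS MEFs and E-CAD- 2NG- cells lay between 3350 (replicate block) and 3772 (DESeq2's Wald test) under 5 alternatives, and at 4910 (2902 higher; 3199 shared with the 3410) against all 6 MEF libraries. With 1 library left out it lay between 1874 (without MEF replicate 2; 2248 without MEF replicate 1) and 2894, with 961 to 1630 higher and 913 to 1264 lower. The comparison with E-CAD+ 2NG- cells called 843 genes without the filter on low counts (360 higher, 483 lower) and 176 in a fit of only the libraries compared (88 lower), and the Wald test called 226 higher. With 1 library left out it called 186 (without E-CAD- 2NG- replicate 3) to 438 (without E-CAD+ 2NG- replicate 3), with 52 to 210 higher and 132 to 228 lower. The contrast of the routes called 762 without the filter (319 and 443), 667 with the Wald test (288 more positive) and 249 more positive in only the libraries compared; with 1 library left out it called 152 (without MKOS MEF replicate 2) to 331, with 55 to 128 more positive and 94 to 225 more negative. The cause of these shifts was not tested, and a MEF library left alone in its group is assumed to vary like the other groups.

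Replicate numbers pair nothing in the labels. Deviations from the group means of same-numbered E-CAD- 2NG- and OKMS MEF libraries correlated at 0.021 and -0.014. Those of E-CAD- and E-CAD+ 2NG- libraries correlated at 0.069, 0.106 and 0.258. Among the latter, 5 of 6 libraries correlated best with their own number. The main fit did not pair samples, and whether same-numbered E-CAD- and E-CAD+ libraries share a sort was not tested. With the replicate block, 3350, 439 and 479 genes were called in the 3 comparisons.

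Against OKMS MEFs, 2 of the genes whose sign turned had been called, Mylpf (0.34 with all 6 MEF libraries) and Klk8, which fell (-1.39) and with all 6 MEF libraries rose (2.47, adjusted p = 0.00271). None of the others was called before or after. With all 6 MEF libraries the log2 fold change was 0.34 for Smad4, 0.0859 for F11r, -0.17 for Cd9, -0.33 for Gins2, 0.72 for Hoxa7, 0.11 for Hoxa5, 1.17 for Tdrd1, 0.17 for Rexo2 and 0.0097 for Krt18. For Cd9 and Gins2 it was -0.0138 and -0.0569 with DESeq2's size factors and -0.0132 and -0.0581 with its Wald test, and for Gins2 -0.005 without the filter. With the replicate block it was -0.20 for Gins2, 0.32 for Hoxa7, 0.36 for Tdrd1, -0.42 for Gap43 and 0.0332 for Ncam1, and in only the libraries compared 0.0188 for Hoxa7. With 1 library left out the range reached across 0 for Smad4 (-0.17 to 0.0316), F11r (-0.64 to 0.27), Cd9 (-0.16 to 0.36), Gins2 (-0.37 to 0.49), Gapdh (-0.52 to 0.0831), Hoxa7 (-0.29 to 0.25), Ifi35 (-0.51 to 0.0757), Tdrd1 (-2.03 to 5.52), Gap43 (-0.66 to 0.50), Lum (-3.31 to 0.50) and Pcna (-0.24 to 0.0012, against E-CAD+ 2NG- cells). The cause of these turns was not tested. Depth limits genes with few MEF reads, whose folds are bounds or wide intervals.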

Other observations

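E-CAD- cells of the 3NG- gate (CD44 low, ICAM1 high, Nanog-GFP-), 3 libraries of the same cassette, are in no comparison above. Their values are given for some genes described above and for the neural markers, chosen after their values were seen. Insm1 was at 25.6, 18.5 and 16.6 CPM there and Necab1 at 56.1, 76.0 and 21.2 CPM. Other neuronal genes and Mfng were lower in every 3NG- library than in any E-CAD- 2NG- library. Pcsk2 was at 2.81, 1.05 and 10.9 CPM, Gng3 at 14.4, 12.9 and 17.7 CPM and Mfng at 7.93, 11.2 and 8.44 CPM. The neural markers summed to 439, 482 and 376 CPM, against 1038, 1057 and 2239 CPM in the E-CAD- 2NG- cells. Cdh1 was at 8.59, 9.76 and 16.1 CPM and Epcam at 6.61, 14.6 and 6.53 CPM. Snai1 was at 3.47, 6.62 and 9.26 CPM, against 128 and 223 CPM in the OKMS MEFs. No test was made.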
